A study of Homo sapiens with 32 samples.

Results

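The promoters of histone genes, most of them in clusters, were examined in ATAC-seq data. The cells were a HEK293T clone in which the zinc finger transcription factor ZNF143 carries a degron tag. Histone promoter windows were the counted windows, 401 bp long, centred no more than 500 bp from a transcript start of a protein-coding H1, H2A, H2B, H3 or H4 gene of GENCODE release 44 (hg38), chosen by gene symbol. The rule found 73 windows of the 212358 in the count table, beside 32936 windows at starts of protein-coding genes in general. These 73 windows lay at 54 of the 73 genes, and all 73 windows passed the filter on low counts. No accessibility value was used to choose the genes, but the table lists only windows that the authors called as peaks.

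ATAC-seq marks open DNA by the insertion of sequencing adapters with the Tn5 transposase. HEK293T is a human embryonic kidney line, and HEK_CloneZD29 is a single clone of it, so all groups share that clone and its degron tag on ZNF143. The 8 treated libraries came from cells given 50 nM dTAGV-1, a compound that recruits a ubiquitin ligase to the tag, for 30 min. The 8 control libraries are labelled DMSO, while the treatment protocol speaks of untreated cells. Both groups hold replicates 9 to 16. The extent of ZNF143 loss was not analysed here, and the labels do not say whether replicates came from separate cultures, so p-values measure only the spread between these libraries. Total counts ran from 2275856 in control replicate 12 to 13671039. Control replicate 12 also had the flattest signal. Only 32.0% of its total counts lay in the top decile of all windows by level, against 45.9 to 49.5% for the other control libraries. Of all 185040 tested windows, 397 were called (0.215%), 395 of them lower and 2 higher after dTAGV-1.

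Replication-dependent histone genes supply the core histones and linker histone H1 that package newly copied DNA in S phase. Most lie in a large cluster on the short arm of chromosome 6 and a smaller one on chromosome 1, and many H2A and H2B genes are paired head to head around a shared promoter. Their transcription is organised in the histone locus body around the protein NPAT. The CCAAT box is bound by NF-Y, the H2B octamer by OCT1, and the AC box is a feature of H1 promoters. HINFP acts at H4 promoters. ZNF143 is known from promoters of snRNA and many protein-coding genes.

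The promoters on which the results turn are printed here 5′ to 3′ so that their elements can be compared. Capitals mark 4 elements, each on either strand. The TATA box was searched as TATAAA. The CCAAT box was searched by the letters of its name. The octamer was searched as ATTTGCAT. The AC box of H1 genes was searched as AAACACA. The shared stretches lie between the starts of 2 divergent genes and were read from the plus strand of hg38. The others are the 120 bases before the start on the gene's own strand, from RefSeq promoters of GRCh38.p14. The H2AC25 and H2BC26 stretch (chr1:228457874-228458102) underlies the most accessible histone window, and the H2BC11 and H2AC11 stretch (chr6:27132796-27133042) the most accessible one on chromosome 6.
H2AC25 and H2BC26: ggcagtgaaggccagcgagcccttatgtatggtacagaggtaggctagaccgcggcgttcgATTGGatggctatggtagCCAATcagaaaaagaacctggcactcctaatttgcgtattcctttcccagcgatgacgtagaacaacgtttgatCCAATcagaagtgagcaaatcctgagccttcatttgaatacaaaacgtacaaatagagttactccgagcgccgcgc
H2BC11 and H2AC11: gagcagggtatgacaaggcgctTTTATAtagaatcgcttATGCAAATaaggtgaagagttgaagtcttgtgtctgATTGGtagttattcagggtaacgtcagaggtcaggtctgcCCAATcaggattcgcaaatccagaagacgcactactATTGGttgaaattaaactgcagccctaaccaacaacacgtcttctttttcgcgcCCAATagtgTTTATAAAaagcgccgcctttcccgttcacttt

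H1-4 (chr6:26156209-26156328, plus strand) and H2BC7 (chr6:26199396-26199515, plus strand) are shown as examples of the AC box in an H1 promoter and of the octamer in an H2B promoter. H1-4 also has a TATA box, as have 4 of 9 H1 promoters, while H2BC7 lacks the TATA box that 12 of 18 H2B promoters hold. H3C14 (chr1:149841209-149841328, minus strand) is an example of an H3 promoter with paired CCAAT boxes and a TATA box.
H1-4: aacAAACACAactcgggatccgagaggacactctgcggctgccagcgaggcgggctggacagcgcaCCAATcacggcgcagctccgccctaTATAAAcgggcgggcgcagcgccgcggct
H2BC7: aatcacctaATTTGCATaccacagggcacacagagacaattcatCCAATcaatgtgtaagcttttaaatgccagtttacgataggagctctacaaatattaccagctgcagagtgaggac
H3C14: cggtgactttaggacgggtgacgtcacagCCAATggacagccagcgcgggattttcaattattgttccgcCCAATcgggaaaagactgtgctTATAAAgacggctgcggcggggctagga

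H4C11 (chr6:27823972-27824091, plus strand) had the smallest p-values after dTAGV-1, and H4C12 (chr6:27831561-27831680, minus strand) is its closest copy. Their stretches agree at 119 of 120 bases, and the difference from H4C11 to H4C12 is G116T, counted from 1 at the 5′ end.
H4C11: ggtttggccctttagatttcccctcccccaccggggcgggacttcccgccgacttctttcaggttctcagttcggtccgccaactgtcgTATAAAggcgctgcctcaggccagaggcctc
H4C12: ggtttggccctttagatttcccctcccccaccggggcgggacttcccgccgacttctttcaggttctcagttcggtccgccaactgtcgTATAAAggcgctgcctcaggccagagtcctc

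Searched as exact letters over 250 bases before to 50 after the start, 67 of the 73 genes had a promoter in the RefSeq table, which holds 27305 promoters. A TATA box occurred in 43 of the 67 (64.2%), against 12% of all promoters. In 35 of the 67 (52.2%) it began 40 to 20 bases before the start on the gene's strand, against 2.55% of all promoters. A CCAAT box occurred in 56 (83.6%, against 35.7%), and 44 (65.7%, against 11.3%) held 2 or more. The octamer occurred in 26 (38.8%, against 1.80%) and the AC box in 10 (14.9%, against 5.76%). Head-to-head genes share much of this stretch, so that 1 element can count for both genes. In 0 of the 67 histone promoters did the letters of any 2 of these elements overlap.

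The elements divided by histone type. The octamer stood in 14 of 18 H2B and 11 of 16 H2A promoters, in 1 of 11 H3 promoters and in none of 9 H1 or 13 H4 promoters. All 16 H2A, 18 H2B and 11 H3 promoters held a CCAAT box, as did 8 of 9 H1 but only 3 of 13 H4 promoters. The AC box stood in 7 of 9 H1, 2 of 11 H3 and 1 of 16 H2A promoters, and in none of the H2B or H4 promoters. A TATA box was present in 36 of the 49 matched genes with a counted window and in 7 of the 18 without one. The CCAAT box stood in 39 of those 49 and in 17 of those 18. The ZNF143 core motif, looked for on either strand up to 100 bp from the centre, occurred in 0 of 73 histone windows, against 0.594% of all tested windows and 0.893% of coding promoter windows. It was in 0 of 67 histone promoters, against 1.24% of all promoters. The absence concerns these letters in these stretches only.

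Of the 73 histone genes, 54 (74.0%) had a window in the count table, close to 15158 of 20007 protein-coding genes (75.8%). By type, a window was present at 16 of 17 H2A, 13 of 18 H2B, 11 of 15 H4, 9 of 13 H3 and 5 of 10 H1 genes. On chromosome 1, all 13 genes had one, of which 11 lie in the group from H2BC18 to H2AC21 and 2 are the H2AC25 and H2BC26 pair. On chromosome 6 the count was 38 of 55. It was made up of 21 of 34 genes in the group from H2AC1 to H4C8 and 17 of 21 in the group from H2BC11 to H2BC17. The remaining genes stand alone on other chromosomes, and 3 of those 5 had a window.

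No window in the table analysed here fell at H1-1, H1-5, H1-6, H1-7, H1-8, H2AC1, H2BC1, H2BC3, H2BC8, H2BC9, H2BC10, H3C3, H3C4, H3C8, H3C11, H4C6, H4C7, H4C9 or H4C13. Their nearest windows were centred 530 bp (H2BC8) to 10087 bp (H3C3) away. H2AC1, H2BC1, H1-6 and H1-7 are known as testis-specific genes. At all 19 starts fewer than 20% of the 31-base stretches recur in hg38, with a highest value of 15.6% at H2BC10. A separate list of peak summits, from replicates 1 to 8 and without values per library, had a summit at most 500 bp from 51 of the 73 genes. Both lists gave the same answer for 70 of the 73 genes. H2AC14 and H2BC14 were among the exceptions, with a counted window but no summit. The strongest summit by the authors' score lay at H2AC25 and H2BC26 (2163, on the -log10 scale).

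Levels are given as log2 CPM, the logarithm of counts scaled to library size, and all windows have the same length. The median level of the 73 windows in control was 4.27 (quartiles 3.44 and 4.86, range 1.07 to 6.18). The median was 3.14 over tested coding promoter windows and 1.42 over all tested windows. Of the 73 windows, 61 lay above the coding promoter median and 14 in the top decile of coding promoter windows. In each library the mean over histone windows exceeded that over coding promoter windows, by 1.00 ± 0.042 (SD, n = 8) in control and 0.99 ± 0.076 in dTAGV-1. The difference was positive in 16 of 16 libraries. Peaks were called before windows were counted, so the comparison covers only promoters open enough to be listed.

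**Figure D1:**
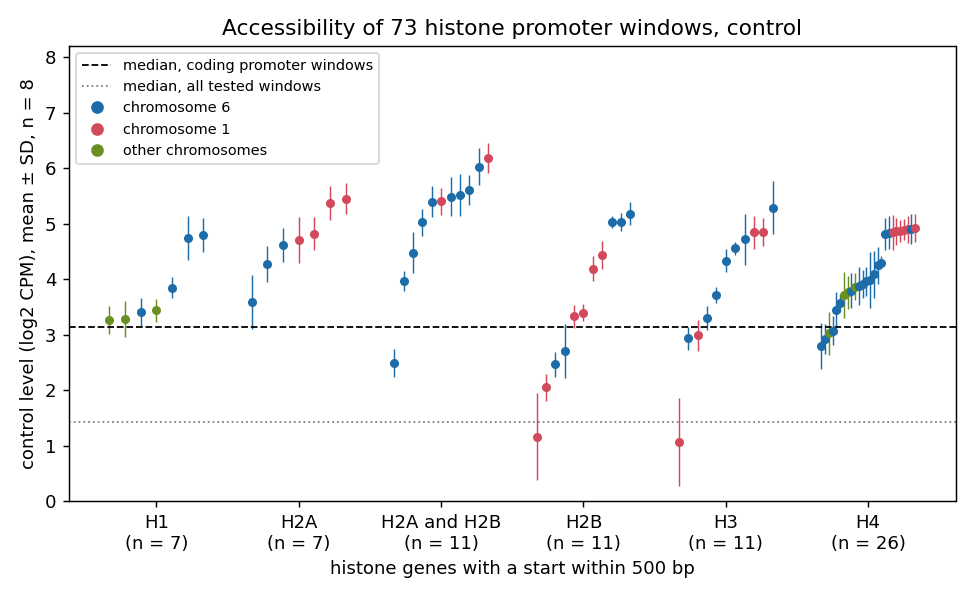
Each point is the mean log2 CPM of 1 histone promoter window over 8 control libraries, with its SD as a bar, grouped by the histone type of the genes within 500 bp and coloured by chromosome. Windows shared by H2A and H2B starts reach the highest levels, up to 6.18, and 61 of the 73 windows lie above the dashed median of coding promoter windows, 3.14.

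Linker histone H1 windows had a mean of 3.82 ± 0.19 over control libraries (SD, n = 8). H2A windows stood highest at 4.91 ± 0.28, followed by H2B at 4.30 ± 0.23. H4 windows, at 4.08 ± 0.24, and H3 windows, at 4.01 ± 0.25, differed by less than their spread. The H2A mean exceeded the H1 mean by 1.09 ± 0.17 in control and 1.13 ± 0.12 in dTAGV-1, in 16 of 16 libraries. Windows with both H2A and H2B starts were counted in both types. The 7 H1 windows include some at genes outside chromosomes 6 and 1, among them those of H1-10 at 3.27 and 3.26. On chromosome 6, H1 windows stood at 4.79 (H1-2), 4.74 (H1-4), and 3.85 and 3.41 (both H1-3). The H1 mean and its distance from H2A thus depend in part on which H1 genes are included.

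The H2A and H2B levels divided by whether a window centre lay within 500 bp of both an H2A and an H2B start. The 11 windows with both an H2A and an H2B start had a median of 5.40, and the 18 windows with starts of only one of these types had 4.35. Within libraries the shared windows were higher by 1.06 ± 0.066 in control and 1.07 ± 0.073 in dTAGV-1, again in 16 of 16 libraries. The shared windows held the 2 most accessible of all histone windows. The other windows include some at genes of head-to-head pairs, such as H2AC25 at 305 bp and H2BC15 at 401 bp. The split is thus mixed with distance from the start and does not compare paired with unpaired genes. Window levels add the signal of both directions, and a signal per start was not measured.

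The highest level was at H2AC25/H2BC26 (chr1:228457737-228458137, upstream of both genes), centred 64 bp from the nearer start. Over the 8 control libraries its log2 CPM had a lowest value of 5.53, a median of 6.25 and a highest of 6.41. After dTAGV-1 these were 5.90, 6.23 and 6.40. The groups overlapped over most of their range, and 99.1% of coding promoter windows were less accessible in control. H2BC11/H2AC11 on chromosome 6 (chr6:27132638-27133038) followed, with a lowest value of 5.22, a median of 6.13 and a highest of 6.23 in control and 5.81, 6.09 and 6.21 after dTAGV-1. In both windows the lowest control value came from control replicate 12.

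Within types the spread over genes was wide. Among H1 genes, H1-2 had the highest nearest window at 4.79 ± 0.30 in control, and H1-10, a replication-independent H1 on chromosome 3, the lowest at 3.27 ± 0.33. Among H3 genes, H3C2 stood at 5.29 ± 0.48 and H3C7 at 2.93 ± 0.21. Among H4 genes, H4C1 stood at 4.91 ± 0.27 and H4C12 at 2.80 ± 0.42. The lowest nearest window of an H2A gene was that of H2AC14, shared with H2BC14, at 2.49 ± 0.24, and that of an H2B gene was H2BC18 at 1.16 ± 0.78. The H2BC18 window 18 bp downstream of a start (chr1:149811539-149811939) held only 1 to 33 counts per library. It does not cover the main annotated start of H2BC18 at chr1:149812370. The H2BC18 window that does (chr1:149812278-149812678) stood at 4.19 ± 0.22.

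The named genes outside both clusters were among the weaker ones. H4C16, on chromosome 12, had 4 windows with control means of 3.02, 3.71, 3.76 and 3.86. H1-10 had a further window 466 bp upstream at 3.26 ± 0.25.

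The window centre lay upstream of the nearest start in 42 windows and downstream in 31, at a median distance of 96 bp. Distances were taken to the nearest annotated transcript start, which is not always the main annotated start. Both H2BC6 windows (chr6:26171772-26172172 and chr6:26172185-26172585) lie away from its main start at chr6:26183761. The H3C6 window (chr6:26223903-26224303) does not cover its main start at chr6:26225135. Of the H4C16 windows, only chr12:14770943-14771343 covers its main start at chr12:14771131. Of the H2BC26 windows, only the one shared with H2AC25 covers its main start at chr1:228458103. By annotation, 36 windows were centred upstream of the gene, 21 in a coding exon, 11 in an untranslated region, 3 in an intron and 2 in another exon. Levels were lower at larger distances, with medians of 4.62 over 37 windows within 100 bp, 4.43 over 23 windows from there to 250 bp and 3.26 over 13 windows beyond 250 bp. Of the 73 windows, 41 overlapped another of them and so share counts.

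**Figure D2:**
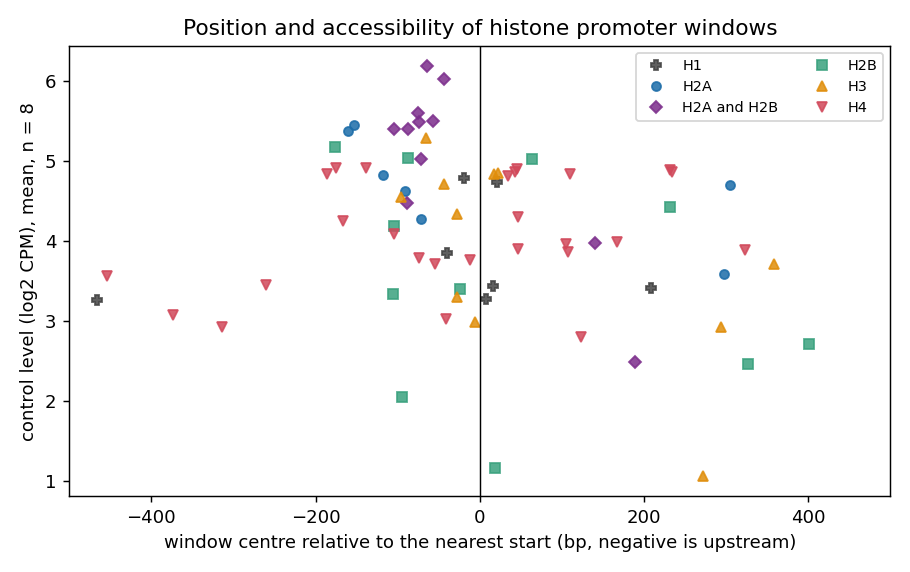
Each symbol is 1 histone promoter window, placed by the distance of its centre from the nearest histone start (bp, negative upstream) and its mean control log2 CPM over 8 libraries, with shapes for the histone types. Most shared H2A and H2B windows gather just upstream of the start, while H2AC7/H2BC7 at 140 bp (3.97) and H2AC14/H2BC14 at 189 bp (2.49) lie downstream. Windows beyond 250 bp have a median of 3.26.

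Between the clusters no direction held under every setting. The median over windows was 4.26 for the 44 windows on chromosome 6 and 4.84 for the 22 on chromosome 1. Averaged over windows within each library, however, chromosome 6 minus chromosome 1 was -0.046 ± 0.063 in control (SD, n = 8) and -0.070 ± 0.053 in dTAGV-1, above 0 in 2 of 16 libraries. With windows within 250 bp of a start the control difference was 0.10. The 2 groups of genes on chromosome 6 were alike on this scale. The mean was 4.20 ± 0.23 from H2AC1 to H4C8 and 4.21 ± 0.25 from H2BC11 to H2BC17. On chromosome 1 the mean was 4.20 ± 0.28 from H2BC18 to H2AC21 and 4.41 ± 0.23 at H2AC25 and H2BC26.

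The types did not follow the same order in both clusters. The 6 H4 windows on chromosome 1 lay between 4.84 and 4.92, all at the inverted copies H4C14 and H4C15, while the 16 on chromosome 6 ranged from 2.80 to 4.91 with a median of 3.93. H2A and H2B windows had medians of 4.57 on chromosome 1 (12 windows) and 5.02 on chromosome 6 (17 windows). H3 medians were 3.91 (4 windows) and 4.44 (8 windows).

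Duplicated sequence bears on the chromosome 1 values. Between H2BC18 and H2AC21 the genes H4C14, H3C14 and H2AC18 face copies of themselves, H4C15, H3C15 and H2AC19, in inverted order. Every 31-base stretch of these 10 windows recurs in hg38, and paired windows shared 97.0 to 99.7% of them. The H4C14 and H4C15 promoters were identical over 120 of 120 bases. The stretches upstream of H2AC18 (chr1:149842751-149842870, minus strand) and H2AC19 (chr1:149850941-149851060, plus strand) show the same, shifted by the annotated start.
H2AC18: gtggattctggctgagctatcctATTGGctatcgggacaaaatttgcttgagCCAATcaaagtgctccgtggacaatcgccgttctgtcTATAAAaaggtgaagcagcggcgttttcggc
H2AC19: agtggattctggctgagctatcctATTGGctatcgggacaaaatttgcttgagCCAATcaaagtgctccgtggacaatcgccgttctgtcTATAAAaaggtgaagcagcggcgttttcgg

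Paired copies were counted at near equal levels. H2AC18 had 5.45 ± 0.28 and H2AC19 5.38 ± 0.31 in control, H3C14 4.85 ± 0.26 and H3C15 4.84 ± 0.30. The 3 pairs of windows at H4C14 and H4C15 lay between 4.84 and 4.92. How reads that match both copies were assigned is not given in the sources used here, so the copies cannot be told apart and their windows are not independent. In all, 16 of the 22 windows on chromosome 1 had at least 50% recurring stretches, against 3 of 44 on chromosome 6. With the other windows only (41 on chromosome 6, 6 on chromosome 1), a choice made after seeing the data, chromosome 6 minus chromosome 1 was -0.53 ± 0.046 in control, below 0 in 16 of 16 libraries. Those 6 windows lie at 5 genes, including H2AC25 and H2BC26, the separate pair with the highest histone window (6.18). From the group between H2BC18 and H2AC21 only the windows H2BC21/H2AC20 (5.40) and H2AC21 (4.82) remain. The difference is thus not one for that larger chromosome 1 group alone.

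H4C11 and H4C12 on chromosome 6, alike in the stretches shown above, did not share a level. Their windows in the coding exon shared 71.2% of 31-base stretches and stood at 3.91 ± 0.25 and 2.80 ± 0.42 in control. The windows sit at different distances, 47 and 123 bp into the gene.

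After dTAGV-1, none of the 73 histone windows was called at 0.05 by the quasi-likelihood test of edgeR, adjusted by Benjamini-Hochberg over all 185040 windows. The background was 0.215% of all tested windows and 0.634% of coding promoter windows (201 of 31702). At an unadjusted p under 0.05 there were 2 of 73, against 2.85% of all tested windows and 3.08% of coding promoter windows. This count was 0 without control replicate 10, 11 or 14 or dTAGV-1 replicate 9 or 12, 1 without dTAGV-1 replicate 15 or 16, and 3 without control replicate 12. The shares over all windows in the fits with a library left out are not given here. DESeq2 called 0 of 73, against 0.275% of all tested windows and 0.893% of coding promoter windows. It gave 1 of 73 an unadjusted p under 0.05, against 2.92% and 3.26%. The fitted log2 fold changes ran from -0.35 to 0.24, with 36 below and 37 above 0 and a median of 0.0024. The median was 0.0077 over all tested windows and 0.011 over coding promoter windows. The 2 groups of libraries were free of overlap in 0 of 73 histone windows, against 0.0746% of all tested windows and 0.17% of coding promoter windows.

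**Figure D3:**
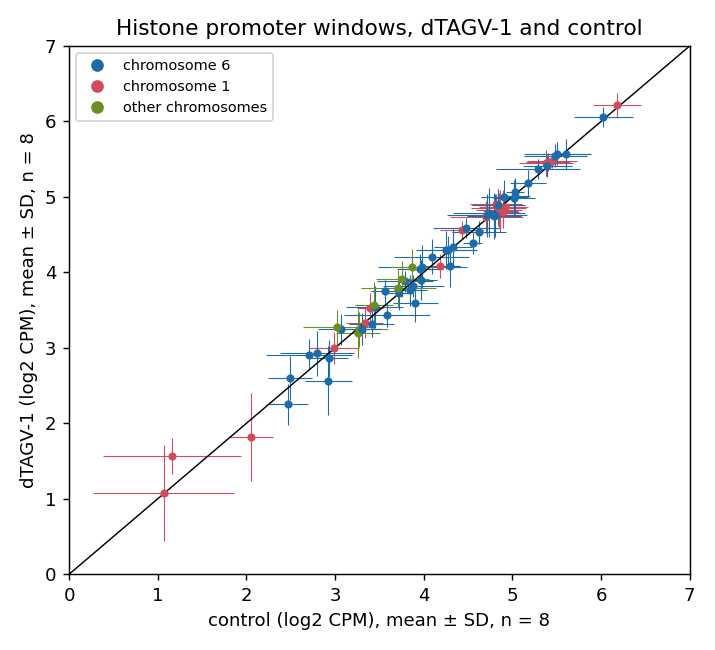
Each point is 1 of the 73 histone promoter windows, with its mean log2 CPM over 8 control libraries on the x axis and over 8 dTAGV-1 libraries on the y axis, and the SD as bars. The points follow the line of equality from 1.07 to 6.18, and no window was called.

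The precision limits what can be said for single windows. Standard errors of the log2 fold changes lay between 0.13 and 0.27, with a median of 0.14, and 61 of the 73 changes were smaller than their standard error. An interval of 2 standard errors reached down to -0.73 at its lowest and up to 0.67 at its highest. The median change of the called lower windows, -0.95, fell outside that interval in all 73 windows. That median is taken over windows picked by the same test, and smaller losses are among the called ones. Changes near the size of the standard errors were not detectable at this depth, and clearly larger ones could also go uncalled. At ZNF473, outside the 73 windows, a change of -0.57 with a standard error of 0.14 was not called (edgeR adjusted p = 0.089).

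The means over groups were close as well. Control libraries had a histone mean of 4.15 ± 0.24 (SD, n = 8), and dTAGV-1 libraries one of 4.16 ± 0.12. By type, dTAGV-1 minus control was -0.021 for H1, 0.019 for H2A, 0.030 for H2B, -0.0029 for H3 and 0.024 for H4, each under the SD over control libraries. Without replicates 11 and 12 of both groups, the histone means were 4.24 ± 0.059 and 4.21 ± 0.11.

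**Figure D4:**
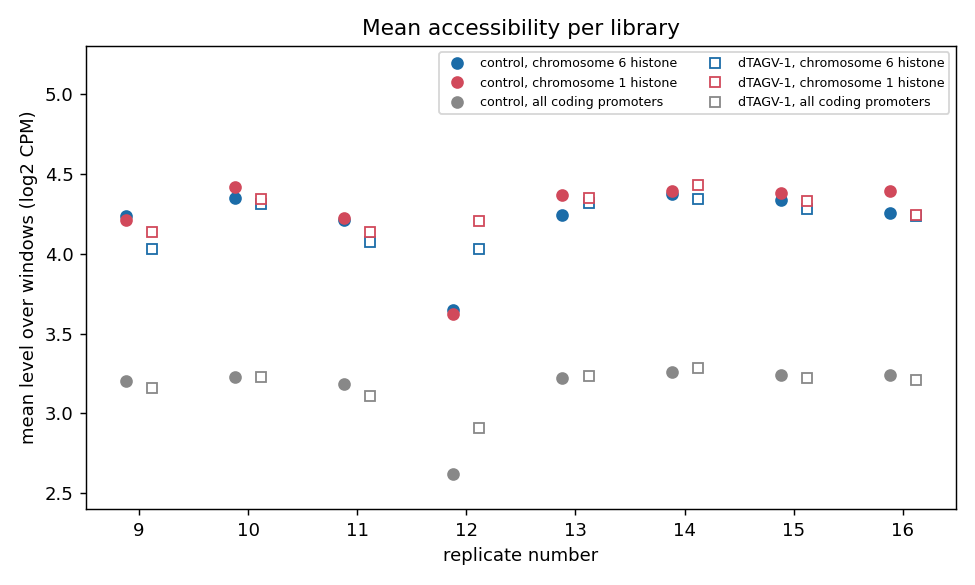
Mean log2 CPM per library over chromosome 6 histone windows, chromosome 1 histone windows and all coding promoter windows, by replicate number, with filled circles for control and open squares for dTAGV-1. Control replicate 12 is low for all 3 kinds of window (3.65, 3.62 and 2.62), and in every library both histone means lie above the coding promoter mean.

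H4C11 gave the 2 smallest p-values. At its coding exon window (chr6:27823939-27824339) the log2 CPM had a lowest value of 3.37, a median of 3.92 and a highest of 4.18 in control. After dTAGV-1 these were 3.17, 3.62 and 3.91. All 8 dTAGV-1 values lay below the control median, though the groups overlapped. The fit gave a log2 fold change of -0.31, standard error 0.14 (edgeR unadjusted p = 0.027 with 8 libraries a group in a fit across all windows, adjusted p = 1.0).

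At the H4C11 window 314 bp upstream (chr6:27823578-27823978) the control values had a lowest of 2.55, a median of 2.89 and a highest of 3.32, and the dTAGV-1 values 1.94, 2.66 and 3.28. The change was -0.35 with a standard error of 0.16 (edgeR unadjusted p = 0.035, adjusted p = 1.0), and 6 of 8 dTAGV-1 libraries lay below the control median. Both windows overlap and so share counts, and neither passed the test. At its near copy H4C12 the fitted change was 0.076 with a standard error of 0.16. The coding exon windows of H4C11 and H4C12 share 71.2% of their 31-base stretches, so reads between those windows are uncertain. In the H4C11 window 314 bp upstream, 13.5% of the stretches recur in hg38, and none was found in a histone window that does not overlap it.

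The other windows with the smallest p-values showed smaller changes. Toward lower values these were H2BC6 at 326 bp (-0.24, standard error 0.16), H2AC8 at 297 bp (-0.23, standard error 0.15) and H4C8 at 46 bp (-0.20, standard error 0.13). Toward higher values they included H4C16 at 41 bp upstream (0.22, standard error 0.14) and at 107 bp (0.20, standard error 0.13). Both H4C16 distances are counted from starts other than its main one. H4C1 at 454 bp upstream had 0.18 with a standard error of 0.13. The largest fitted value, 0.24 at H2BC18, had a standard error of 0.21. Leaving out libraries moved some of these in both directions. H2AC8 was at -0.13 without control replicate 10 but at -0.31 without control replicate 12 (edgeR unadjusted p = 0.018). Without replicates 11 and 12 of both groups it was at -0.27 (edgeR unadjusted p = 0.023). H2BC18 was at 0.15 without dTAGV-1 replicate 16, 0.16 without control replicate 12 and 0.30 without control replicate 13. In the main fit of all 16 libraries, without a block for the replicate number, none of these windows had an unadjusted p under 0.05.

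**Figure D5:**
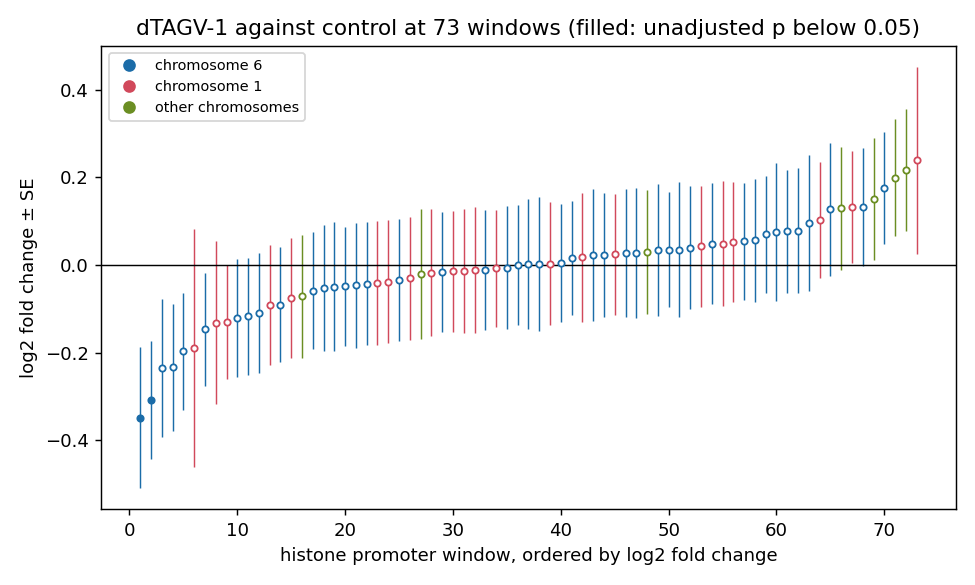
Fitted log2 fold change of dTAGV-1 against control for each of the 73 histone promoter windows in order of size, with the standard error as a bar and colours for the chromosome. Values run from -0.35 to 0.24, and the 2 filled points, both at H4C11, have an unadjusted p under 0.05 and were not called.

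Neither cluster stood apart in this comparison. The median log2 fold change was 0.0025 over the 44 chromosome 6 windows and -0.013 over the 22 chromosome 1 windows. The medians by type were -0.050 for H1, 0.0028 for H2A, 0.0099 for H2B, -0.0057 for H3 and 0.032 for H4. The 7 windows outside chromosomes 6 and 1 had a median of 0.13, with 5 above 0. The single gene H4C16 gave 4 of these windows, all above 0, and the median is that of its window 12 bp upstream.

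The promoters of other histone genes and of genes that serve histone supply were read from the same fit. Of 12 variant and replication-independent histone genes, which include H1-10, 11 had tested windows. None of their 25 windows was called and 1 had an unadjusted p under 0.05. Of 11 genes of the histone locus body and histone transcription all had windows, with 0 of 22 called and 0 at an unadjusted p under 0.05. The promoters of NPAT (6.31 ± 0.50 in control, 6.37 ± 0.41 in dTAGV-1) and HINFP (6.11 ± 0.42 and 6.14 ± 0.34) differed between groups by less than their spread. POU2F1, the gene of OCT1, chosen after its value was seen, had the largest fitted change of the list, -0.64 with a standard error of 0.32 (edgeR unadjusted p = 0.051, adjusted p = 1.0), at a weakly open window 222 bp from a start (0.88 ± 0.74 and 0.35 ± 0.28). Of 9 genes of histone mRNA processing, 0 of 22 windows were called and 2 had an unadjusted p under 0.05. Of 11 chaperone genes, 10 had windows, with 0 of 22 called and 0 at an unadjusted p under 0.05. The medians of the 4 lists were -0.024, -0.011, -0.059 and 0.0073, against 0.011 over coding promoter windows. The background for these counts was 0.634% of coding promoter windows called and 3.08% at an unadjusted p under 0.05.

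The 3 windows with an unadjusted p under 0.05, chosen here after their values were seen, all had lower values after dTAGV-1. ZNF473, a component of the U7 snRNP machinery that processes histone mRNA, was at 3.59 ± 0.24 in control and 3.06 ± 0.28 in dTAGV-1 at its nearest window. Its change was -0.57 with a standard error of 0.14 (edgeR unadjusted p = 0.000207, adjusted p = 0.089). MACROH2A1, the histone variant with a macro domain, had -0.48 with a standard error of 0.16 (edgeR adjusted p = 0.93). SYMPK, the scaffold of the cleavage complex, had -0.42 with a standard error of 0.14 at 1 of 4 windows (edgeR adjusted p = 1.0). At SYMPK's window nearest the start the value was 0.13.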

How the data were processed

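Window counts for the 16 libraries of replicates 9 to 16 were deposited as whole, unnormalised counts, per the file headers. The deposited window and summit lists also give the authors' -log10 q values, from 2.0 upwards. Per the submitters' processing notes, cutadapt 1.8.1, Bowtie2 2.4.4, SAMtools 1.9 and hg38 were used. Peak caller, counting and Tn5 read shift are not given in the sources used here. Any such shift would move both groups alike by far less than the window length of 401 bp.

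edgeR 4.0.16 under R 4.3.3 was used for the tests (filterByExpr, TMM scaling, quasi-likelihood test, Benjamini-Hochberg over 185040 windows, no covariate), after a trial on simulated data. Log2 CPM used a prior count of 2. DESeq2 1.42.0, other filters and scalings, a replicate block and leaving out libraries were alternatives. Repeated 31-base stretches were counted on both strands of hg38.

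Members and lists were chosen with earlier results of these data known. Named windows were the 5 lower and 5 higher with the smallest p, the highest and lowest gene per histone type, and members outside chromosomes 6 and 1. A gene that this rule picks is not reported here by name. The near-identical copies were named for their sequence.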

Additional observations from a re-analysis of the deposited data

Results flagged for a closer look

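In each of 64 groups of 8 libraries the highest or lowest value was compared with the rest, and 15 values stood apart by Dixon's 95% criterion. Chance alone flags about 1 group in 20. Of the 15, 14 belong to control replicate 12, the library with the fewest counts and the flattest signal, and the groups overlap in content.

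The mean log2 CPM of control replicate 12 was 3.58 over all histone windows, where the other control libraries lay between 4.15 and 4.31. It was 3.65 over chromosome 6 windows (others 4.21 to 4.38) and 3.62 over chromosome 1 windows (others 4.21 to 4.42). By type it was 4.23 for H2A, 3.73 for H2B, 3.42 for H3 and 3.51 for H4.

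Among single windows, control replicate 12 was low at H2AC25/H2BC26 (5.53), H2BC11/H2AC11 (5.22), H3C2 (4.12) and H4C1 at 139 bp upstream (4.33). It was also low at H4C16 at 41 bp upstream (2.12) and at 55 bp upstream (2.72), and at H2BC18 at 18 bp (-0.70).

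The remaining value was a single one. H4C1 at 139 bp upstream was low in dTAGV-1 replicate 11 at 4.52, where the others lay between 4.94 and 5.32.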

How the results depend on the processing

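None of the histone windows was called under any of 25 alternatives, which covered scaling, filter, DESeq2, the replicate block, the distance to a start, repeated sequence and leaving out each library. The settings on distance, nearest window and repeated sequence only select among the 73 windows of the main fit. Their count of 0 was therefore fixed in advance and adds nothing. Over the 25 alternatives the median log2 fold change of the histone windows lay between -0.054 and 0.027. Over all windows, 397 calls became 753 with a replicate block and 781 without replicates 11 and 12 of both groups. Leaving out single libraries gave 321 to 632 calls, with 632 without control replicate 12. With the replicate block, 6 of 73 histone windows had an unadjusted p under 0.05, against 4.58% of all tested windows and 5.67% of coding promoter windows. Beside those at H4C11 they were H2AC8 at 297 bp, H4C8 at 46 bp, and H4C16 at 41 bp upstream and at 107 bp. The labels do not say that a replicate number marks a shared culture or day. All 8 same-number correlations were above 0 (0.028 to 0.34), but only 5 of 8 were over 0.1, short of the criterion that all pairs be. As a hint of shared number effects, 5 of 8 control and 5 of 8 dTAGV-1 libraries correlated best with their own number. Without replicates 11 and 12 of both groups, 4 of 73 histone windows had an unadjusted p under 0.05. The share over all tested windows in that fit is not given here, so the 4 cannot be set against a background. Chromosome 6 minus chromosome 1 in control, -0.046, became 0.10 within 250 bp of a start, -0.53 with windows under 50% repeated and -0.54 as a median over windows; the cause was not tested. It lay between -0.062 and -0.033 in the other 13 settings. Of 273 fold changes recomputed for 13 named windows, 10 changed sign. H1-10 at 466 bp upstream, -0.021, became 0.072 without replicates 11 and 12 of both groups and -0.15 to 0.030 without single libraries, above 0 in 6 of 16. H4C16 at 55 bp upstream, 0.029, became -0.040 to 0.091 without single libraries, below 0 in 3 of 16. The smallest adjusted p among these 273 was 0.45 (edgeR or DESeq2). Shallow windows, such as that of H2BC18, limit what can be seen.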
